A study of Mus musculus with 48 samples.

Results

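Genes of endocannabinoid signalling were followed in mouse striatum: the receptor gene Cnr1 and the enzyme genes Dagla, Daglb, Napepld, Mgll, Abhd6 and Faah. They were taken by symbol and make up 7 of the 23420 rows of the gene count table, and all 7 passed the filter that left 16716 genes to test. The study compared 8 mice of the 112kb congenic line with 8 B6 wild-type (C57BL/6J) littermates, with 4 males and 4 females in each group, all about 50 days old. Striatal punches 3 mm wide from both sides of the brain were pooled for each mouse, and polyadenylated RNA was sequenced from bulk tissue, with each library run on 3 lanes. A congenic line carries a short donor segment on an otherwise common background, and the labels give this segment's size without its position or donor strain. The series title names differential splicing as the subject, so the use of exons was compared as well as the level of each gene.

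Endocannabinoids are lipid messengers that are made on demand and act mainly backwards across synapses. Cnr1 encodes CB1, a Gi/o-coupled receptor that lowers transmitter release and is abundant in striatal medium spiny neurons and on cortical axons that end in the striatum. The messenger 2-arachidonoylglycerol (2-AG) is made from diacylglycerol by the lipases that Dagla and Daglb encode, and is hydrolysed by monoacylglycerol lipase (Mgll) and by the membrane hydrolase of Abhd6. Anandamide is released from N-acyl phosphatidylethanolamines by the phospholipase D of Napepld, among other routes, and is hydrolysed by fatty acid amide hydrolase (Faah).

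The depth of the gene table was 73.1 to 82.0 M counts per mouse. Medium spiny neuron markers summed to 9491 to 11789 counts-per-million (CPM) in congenic mice and to 10162 to 11864.5 CPM in wild-type mice, and none of the 10 was at 0. None of the 10 markers of cortical excitatory neurons was at 0 in all mice, but Neurod1 (mean 0.151 CPM) ran from 0 to 34 counts per mouse. The sum of the 10 ran from 57.9 to 355 CPM (median 124) in congenic mice and from 116 to 315 CPM (median 250) in wild-type mice. In bulk tissue, a change in the number of cells of a type and a change in RNA per cell cannot be told apart. Wild-type mouse Sample_4806, labelled female, had Xist at 2.73 CPM, far under the 958 to 1535 CPM of the remaining 7 females, and its level of the Y-linked Ddx3y was 0.0655 CPM against at least 61.9 CPM in every male. The sex differences of the members and the product terms of genotype and sex are therefore also given without this mouse, and the remaining values by sex include it.

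Stretches of DNA around annotated starts are shown for Cnr1 and Mgll, because exon bins differ between alternative annotated starts of these genes. Each stretch spans 250 bases before to 50 bases after a RefSeq start (GRCm38.p6, read 5′ to 3′ on the plus strand), with every CpG in capitals. The first Cnr1 sequence (chr4:33924394-33924693) belongs to the leader exon of transcript Cnr1-001, and its start lies 12 bases from that transcript's. The second (chr4:33926130-33926429) has its start inside the alternative leader exon of Cnr1-003, 178 bases downstream of that transcript's. Most of the second stretch is therefore sequence of that exon. The Mgll pair is for Mgll-001 (chr6:88724162-88724461) and Mgll-202 (chr6:88724454-88724753).
Cnr1-001 start: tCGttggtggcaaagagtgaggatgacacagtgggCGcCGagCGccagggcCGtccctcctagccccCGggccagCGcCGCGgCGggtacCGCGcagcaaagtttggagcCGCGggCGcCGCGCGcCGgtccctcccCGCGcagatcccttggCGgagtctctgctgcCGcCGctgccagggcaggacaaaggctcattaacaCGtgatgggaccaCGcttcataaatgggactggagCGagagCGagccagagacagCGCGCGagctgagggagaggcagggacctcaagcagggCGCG
Cnr1-003 start: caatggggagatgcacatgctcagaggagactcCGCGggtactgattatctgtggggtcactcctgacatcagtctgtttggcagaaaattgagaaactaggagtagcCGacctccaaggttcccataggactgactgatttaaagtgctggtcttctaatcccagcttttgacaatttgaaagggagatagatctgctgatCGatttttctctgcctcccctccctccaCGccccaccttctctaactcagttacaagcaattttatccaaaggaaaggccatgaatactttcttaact
Mgll-001 start: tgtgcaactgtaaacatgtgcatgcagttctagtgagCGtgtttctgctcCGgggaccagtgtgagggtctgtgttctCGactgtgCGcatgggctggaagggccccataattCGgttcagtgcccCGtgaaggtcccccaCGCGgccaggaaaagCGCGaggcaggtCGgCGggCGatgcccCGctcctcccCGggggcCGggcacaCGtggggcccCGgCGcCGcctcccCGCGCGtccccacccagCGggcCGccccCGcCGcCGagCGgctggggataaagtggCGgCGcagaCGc
Mgll-202 start: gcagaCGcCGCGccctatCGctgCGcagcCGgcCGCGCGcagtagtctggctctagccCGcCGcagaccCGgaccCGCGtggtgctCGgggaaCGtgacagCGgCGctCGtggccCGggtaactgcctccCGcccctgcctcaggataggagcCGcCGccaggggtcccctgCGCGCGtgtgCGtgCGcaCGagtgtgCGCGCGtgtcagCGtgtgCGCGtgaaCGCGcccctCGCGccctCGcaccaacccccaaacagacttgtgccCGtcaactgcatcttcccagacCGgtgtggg

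The Cnr1-001 stretch held 33 CpGs and the Cnr1-003 stretch 5, where the median of 32851 RefSeq promoters of this length was 7. The Mgll stretches held 32 and 42. The letters TATAAA, searched on both strands, were in none of the 10 stretches found for the members and in 13.6% of all promoters. Stretches were found for 6 of the 7 genes, Dagla being the exception. The others held 40 CpGs at another start of Cnr1, 28 at Napepld, 24 and 26 at Abhd6, 16 at Faah and 11 at Daglb.

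Cnr1 stood far above the enzymes. It lies at chr4:34011568-34035806 on the plus strand (NCBIM37, as are all gene and exon positions here) and took 35061 to 52332 counts per mouse, which put it 230th of the 16716 tested genes by CPM. Congenic mice had 476 CPM at the lowest, a median of 523 and 644 at the highest, against 467, 541 and 567 CPM in wild-type mice. The highest congenic mice, female Sample_4739 and male Sample_4671 with 611 CPM, lay above every wild-type mouse, while the rest of the groups overlapped. Cnr1 averaged 539 ± 61.8 CPM in congenic mice and 521 ± 41.5 CPM in wild-type mice (n = 8 each, SD), a log2 difference of 0.05 (SE 0.067, 95% interval -0.086 to 0.19, adjusted p = 0.999).

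The genes that make 2-AG did not pass the test either. Dagla (chr19:10319755-10379367, minus strand), the main source of synaptic 2-AG in the adult brain, had a lowest, median and highest value of 105, 128 and 135 CPM in congenic mice and 122, 127 and 134 CPM in wild-type mice. A single congenic male, Sample_4673, set the low end, and the remaining congenic mice fell between 119 and 135 CPM. The log2 difference was -0.02 (SE 0.051, 95% interval -0.12 to 0.090). Daglb (chr5:144225361-144265310, plus strand), whose lipase is known chiefly from microglia and macrophages, had 22.3, 25.7 and 28.8 CPM in congenic mice and 24.8, 25.8 and 29.4 CPM in wild-type mice. The groups shared most of their range, with a log2 difference of -0.03 (SE 0.054). Per kilobase of exon, Dagla was 4.83 ± 0.393 times Daglb in congenic mice and 4.79 ± 0.239 times in wild-type mice (n = 8 each, SD). The length here joins all annotated exons, which for Daglb is 5677 bp against 3214 bp for transcript Daglb-201. With the shorter length of Daglb the ratio would be lower.

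Napepld (chr5:21168719-21207214, minus strand) was the least abundant of the 7, with 390 to 649 counts per mouse. Congenic mice had 5.33 CPM at the lowest, a median of 6.29 and 8.10 at the highest, and wild-type mice had 5.94, 6.82 and 7.64 CPM. Both extremes were congenic, male Sample_4673 and female Sample_4804, and the log2 difference was -0.06 (SE 0.067, 95% interval -0.20 to 0.078). Single lanes gave -0.04, 0.06 and -0.21 for lanes 3, 4 and 5.

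The hydrolases of 2-AG were nearly level between the groups. Mgll (chr6:88674406-88778354, plus strand) had 125, 137 and 166 CPM in congenic mice and 131, 142 and 157 CPM in wild-type mice, again lowest to highest. The congenic values reached further in both directions, and the means were 142 ± 14.97 CPM in congenic mice and 142 ± 9.07 CPM in wild-type mice (n = 8 each, SD). Abhd6 (chr14:8835416-8889069, plus strand), which acts on the postsynaptic side where 2-AG is made, had 34.4, 36.2 and 43.0 CPM in congenic mice and 33.9, 38.1 and 41.4 CPM in wild-type mice. Its log2 difference was -0.02 (SE 0.046, 95% interval -0.12 to 0.073), and that of Mgll was 0.01 (SE 0.053).

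Faah (chr4:115639750-115690531, minus strand) had the largest fitted difference of the 7, and that too was within the spread between mice. Congenic mice had 16.7 CPM at the lowest, a median of 21.5 and 29.4 at the highest, and wild-type mice had 19.0, 24.1 and 29.8 CPM. The means were 22.4 ± 3.89 CPM in congenic mice and 24.0 ± 3.58 CPM in wild-type mice (n = 8 each, SD), with a log2 difference of -0.10 (SE 0.086, 95% interval -0.28 to 0.085). The median cortical marker sum was also lower in congenic mice. A fit that included a score of those markers gave a log2 difference of 0.04 for Faah. Whether cortical content has a part in the Faah difference was not tested.

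**Figure D1:**
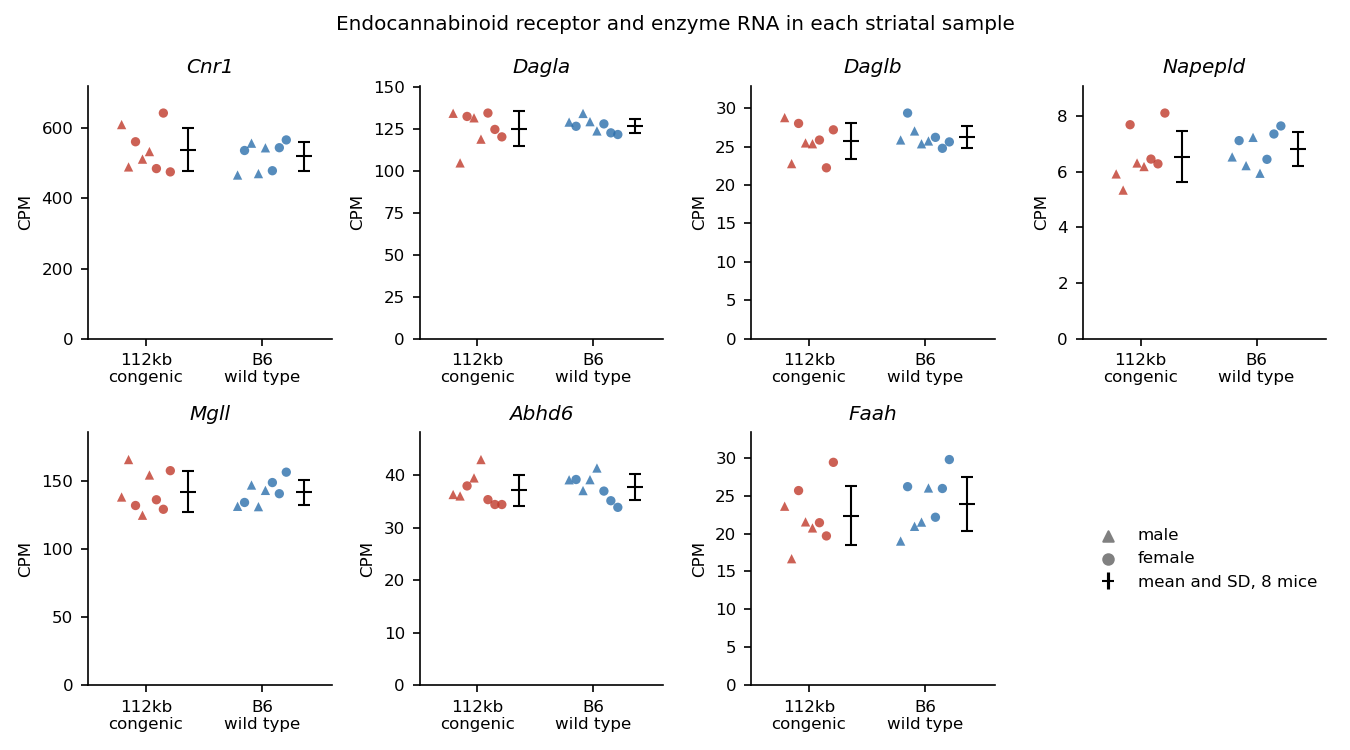
Level of each gene in every mouse, in CPM on an axis from 0, with congenic mice on the left and wild-type mice on the right of each panel. Triangles are males, circles females, and bars show the mean and SD of 8 mice. The groups overlap in all 7 panels, with Cnr1 between 467 and 644 CPM and Napepld between 5.33 and 8.10 CPM.

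By edgeR's quasi-likelihood test with sex in the model, 0 of the 7 genes differed between congenic and wild-type mice at an adjusted p under 0.05, and 0 of 7 had an unadjusted p under 0.05. Over the whole table the share called was 0%, with 256 of 16716 genes under an unadjusted p of 0.05, so the members share the background. DESeq2 and limma-voom also called 0 of the 7 and 0 genes in all. The 7 log2 differences ran from -0.10 to 0.05 with a median of -0.02, 2 of them positive, where the median size of the difference over all tested genes was 0.04. The 95% intervals of the 7 genes reached no further than -0.28 for Faah and 0.19 for Cnr1, which bounds how large a difference these 16 mice leave room for.

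**Figure D2:**
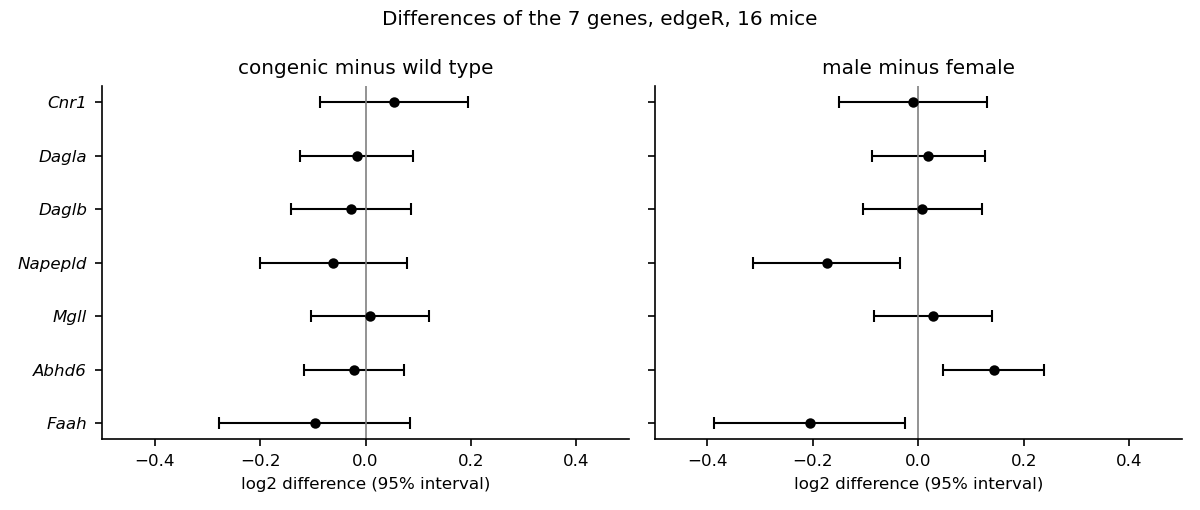
Log2 difference of each gene (x axis) between congenic and wild-type mice on the left and between males and females on the right, with 95% intervals from the edgeR fit over 16 mice. All 7 intervals cross 0 on the left. On the right those of Abhd6, Napepld and Faah do not, with unadjusted p of 0.00528 to 0.0282 and adjusted p of 0.191 to 0.289.

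Male and female mice overlapped for all 7 genes, and 0 of the 7 passed the adjusted test for sex, where 0.138% of the table did (23 genes). An unadjusted p under 0.05 was found for 3 of the 7, and for 2464 of the 16716 genes tested. Abhd6 was on the higher side in males, with 36.1, 39.2 and 43.0 CPM (lowest, median, highest) against 33.9, 35.3 and 39.2 CPM in females, a log2 difference of 0.14 (SE 0.046, adjusted p = 0.191). Napepld and Faah were on the lower side. Males had 5.33, 6.20 and 7.23 CPM of Napepld and females 6.28, 7.23 and 8.10 CPM, a log2 difference of -0.17 (SE 0.067, adjusted p = 0.252). Males had 16.7, 21.2 and 26.02 CPM of Faah and females 19.7, 25.8 and 29.8 CPM, a log2 difference of -0.21 (SE 0.086, adjusted p = 0.289). The cortical markers summed to 57.9, 120 and 315 CPM in males and 76.9, 269 and 355 CPM in females, ranges that overlapped widely, and none of the 10 passed the adjusted test for sex. The medium spiny neuron markers summed to 10436, 11305 and 11864.5 CPM in males and 9491, 10761 and 11139.7 CPM in females, with 10 of 10 log2 differences above 0 and none passing (lowest adjusted p = 0.111, for Ptpn5).

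Leaving out female Sample_4806 gave 0.12 for Abhd6, -0.17 for Napepld and -0.18 for Faah, with adjusted p from 0.367 to 0.473, and values from -0.0069 to 0.04 for the other members. Leaving out the 3 females with the lowest medium spiny neuron markers (Sample_4753, Sample_4804 and Sample_4806), a choice made after seeing the data, gave 0.09, -0.13 and -0.12. When the cortical score was added to the model, the male minus female difference was 0.16 for Abhd6, -0.12 for Napepld and -0.04 for Faah. With all 16 mice, Cnr1, Dagla, Daglb and Mgll had log2 differences between -0.01 and 0.03.

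The congenic minus wild-type difference was not found to depend on sex. The product term of genotype and sex was called for 0 of 7 genes, with 0 of 7 at an unadjusted p under 0.05, and for 0% of the table (698 genes at an unadjusted p under 0.05). DESeq2 and limma-voom called 0 of the 7 as well. The furthest from 0 were Napepld at -0.15 (SE 0.13), with a log2 difference between genotypes of -0.14 in males and 0.01 in females, and Dagla at -0.14 (SE 0.10), with -0.09 in males and 0.06 in females. Mgll lay on the other side at 0.11 (SE 0.107), with 0.06 in males and -0.05 in females. Without Sample_4806 these terms were -0.17 for Napepld, -0.12 for Dagla and 0.09 for Mgll. For Faah the genotype difference was -0.09 in males and -0.10 in females.

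Levels were also set side by side per kilobase of exon, so that genes of different length can be compared. The length of a gene joins all its annotated exons, retained-intron stretches included. It was 5677 bp for Daglb and 7834 bp for Faah, against 3214 bp for transcript Daglb-201 and 3827 bp for Faah-001. A shorter length would raise Daglb and Faah on this scale, so the size of steps and ratios that involve them depends on that choice. The order was Cnr1 with 82.3 ± 8.03 CPM per kb, Mgll with 29.2 ± 2.46, Dagla with 22.0 ± 1.33, Abhd6 with 17.2 ± 1.21, Daglb with 4.58 ± 0.331, Faah with 2.96 ± 0.473 and Napepld with 1.69 ± 0.193 CPM per kb (SD, n = 16). Each gene was higher than the next in 16 of 16 mice. By a two-sided exact sign-flip permutation test p was 3.05e-05 for each of the 6 steps, also after adjustment over the steps. That is the smallest p that 16 mice allow. The order was taken from these same mice, and the test covers the spread between mice and not the choice of exon length. The widest step, 3.77-fold, was between Abhd6 and Daglb, and Cnr1 was 2.82-fold above Mgll. The narrowest steps were 1.33-fold between Mgll and Dagla and 1.27-fold between Dagla and Abhd6, and only that last pair had ranges over the 16 mice that overlapped (18.2 to 23.4 and 15.6 to 19.8 CPM per kb). When only exon bins with at least 10 counts were taken as length, the order was the same and the ranges of Daglb and Faah overlapped too.

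Measured on this scale, the receptor and the 2-AG genes Mgll, Dagla and Abhd6 formed the upper part of the order, and the anandamide genes Faah and Napepld were at its end. Within a mouse, Mgll was 1.72 ± 0.225 times Abhd6 in congenic mice and 1.69 ± 0.203 times in wild-type mice. Faah was 1.73 ± 0.142 times Napepld in congenic mice and 1.78 ± 0.242 times in wild-type mice (n = 8 each, SD). RNA levels do not give enzyme activity.

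Faah varied most from mouse to mouse. Its coefficient of variation over the 16 mice was 16.0%, and its highest mouse had 1.78 times the level of its lowest. Among the 500 tested genes nearest in level, whose median was 7.28%, this is at the 96.2nd percentile. Between the 3 lanes of 1 library Faah varied by 5.63% (median over mice), a technical figure that holds no difference between animals or dissections.

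Cnr1 varied by 9.75% (82.6th percentile of its neighbours) and Mgll by 8.42% (80.6th percentile). The neighbours of Cnr1 ran from 314 to 5671 CPM, so they were not all of like level, and those of Mgll from 127 to 162 CPM. Dagla was the steadiest at 6.07% (50.4th percentile), with Abhd6 at 7.03% and Daglb at 7.23%. The 11.4% of Napepld was near the 10.8% of genes of its level, and its lanes alone differed by 9.20%. Congenic male Sample_4673 was the lowest of the 16 mice in Dagla, Napepld and Faah and the highest in Mgll.

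**Figure D3:**
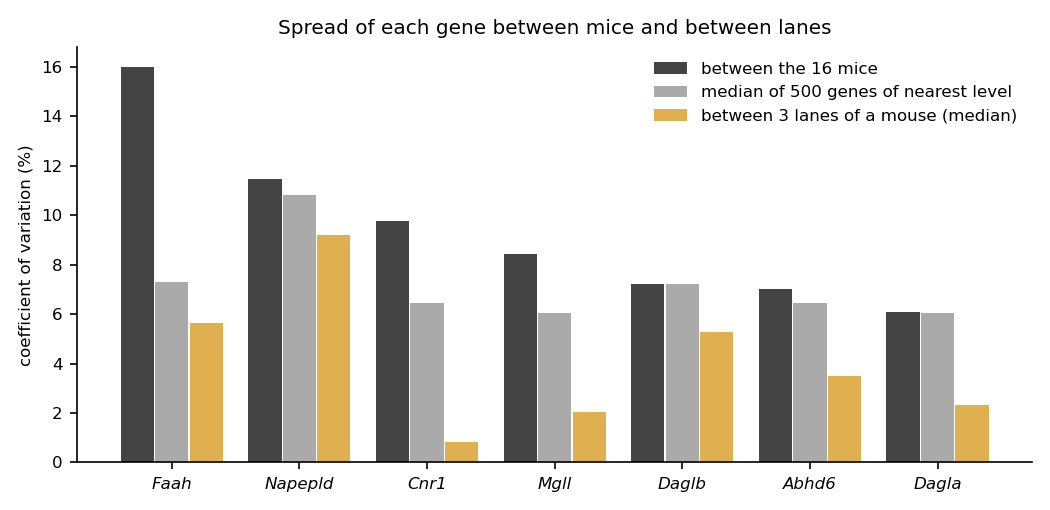
Coefficient of variation (y axis, percent) of each gene between the 16 mice (dark bars), the median of the 500 genes nearest in level (grey bars) and the median between 3 lanes of the same library (yellow bars). Faah stands at 16.0% against 7.28% for genes of its level, and the lane bar of Napepld, 9.20%, stands beside 11.4% between mice. For Cnr1 the 500 genes ran from 314 to 5671 CPM.

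The spread of Faah went with that of the cortical excitatory neuron markers. Over the 16 mice, the log2 level of Faah and the mean score of the 10 markers had Pearson's r = 0.926 and Spearman's rho = 0.856. The permutation p of r was 1e-05, the smallest that 100000 permutations can give, and after adjustment over 77 pairs of a member with a marker list it was 0.00077. Without the mice of lowest score (Sample_4673 and Sample_4739), which lay farthest from its median, r was 0.892. The mice of highest score were kept in that check. In males r was 0.912, in females 0.905, and after removing genotype and sex means 0.906. Of 14079 genes, 33 (0.234%) had a higher r with this score, and the median gene had -0.04.

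The scores left a gap around 0, so the relation was also computed on each side. The 8 mice above 0 (3 congenic, 5 wild-type) had 22.2 to 29.8 CPM of Faah, with r = 0.815 (exact permutation p = 0.0142) and rho = 0.643 (exact permutation p = 0.0962). The 8 mice below 0 (5 congenic, 3 wild-type) had 16.7 to 21.5 CPM, with r = 0.760 (exact permutation p = 0.0391) and rho = 0.190 (exact permutation p = 0.665). The ranges of Faah did not overlap between the sides. The division was made after the scores were seen, so this restates the relation over all mice and is no separate evidence. The share of all genes that the sides separate was not computed. On neither side did the rank correlation pass. Of the mice above 0, 2 were male and 6 female, against 6 male and 2 female below 0.

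With the cortical score, r was 0.582 for Napepld and 0.541 for Daglb, values that 4.28% and 5.26% of genes exceeded. For Cnr1 r was 0.038, for Dagla 0.092, for Mgll -0.009 and for Abhd6 -0.150. What part differences in dissection had in these relations was not tested.

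**Figure D4:**
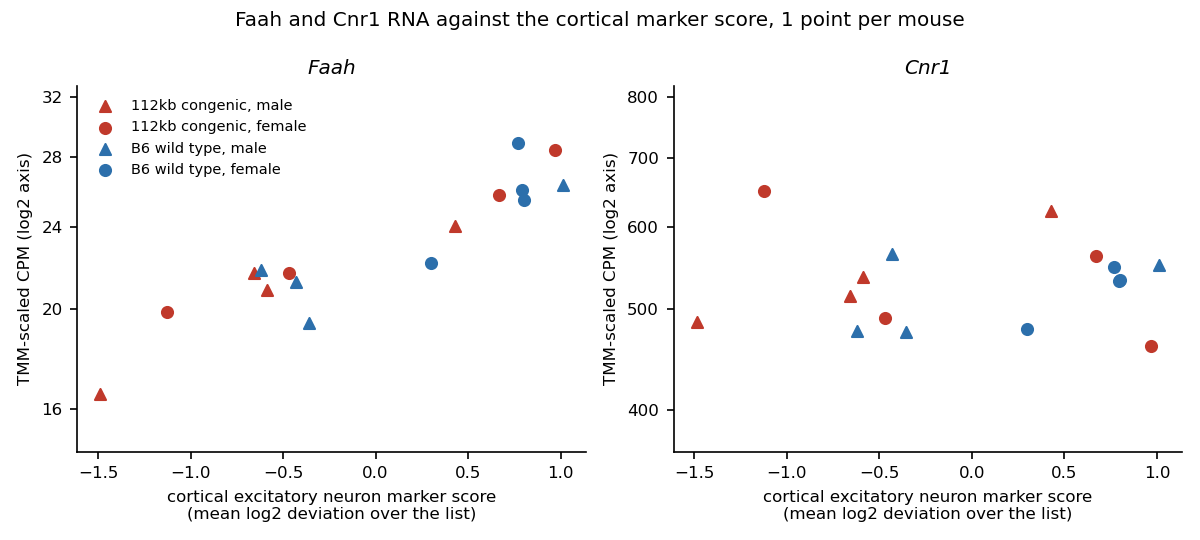
Level of Faah (left) and Cnr1 (right) in each mouse, in CPM scaled by TMM on a log2 axis, against the cortical excitatory neuron marker score on the x axis. Faah climbs with the score over all 16 mice (r = 0.926) with a gap around 0, while the Cnr1 points show no slope (r = 0.038). Red is congenic and blue wild-type, triangles are males and circles females.

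Of the 77 pairs with marker lists, 7 had an adjusted p under 0.05 for r. Faah also rose with interneuron markers (r = 0.792, adjusted permutation p = 0.0104; 0.598 without mice Sample_4673 and Sample_4804) and went against microglial markers (r = -0.739, adjusted permutation p = 0.0293). The interneuron and cortical scores were lowest in the same mice, Sample_4673 (-0.372 and -1.49) and Sample_4739 (-0.176 and -1.13). Whether the interneuron relation is separate from the cortical one was not tested. Dagla went with the pan-medium spiny neuron markers (r = 0.723, adjusted permutation p = 0.0377) and the endothelial ones (r = 0.668, adjusted permutation p = 0.0448). Napepld went against the markers of D1 receptor neurons, the direct pathway (r = -0.688, adjusted permutation p = 0.0415).

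Abhd6 went with D2 receptor neuron markers (r = 0.683, adjusted permutation p = 0.0415), but r was 0.452 without mice Sample_4804 and Sample_4806 and -0.04 within males. Cnr1 had none at this threshold. After removing genotype and sex means, Faah with the cortical and interneuron lists and Dagla with the pan-medium spiny list still passed. With CPM of library totals, Faah with the cortical and interneuron lists passed, as did both relations between members given next.

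Among the 21 pairs of members, 2 had an adjusted p under 0.05 for r, and none did for rho. Napepld and Faah, the enzymes that make and break down anandamide, had r = 0.702 (adjusted permutation p = 0.0462; rho = 0.535, adjusted permutation p = 0.240). Dagla and Mgll, which make and break down 2-AG, had r = -0.668 (adjusted permutation p = 0.0462; rho = -0.541, adjusted permutation p = 0.240). Both rested partly on congenic mice Sample_4673 and Sample_4804, without which r was 0.444 and -0.391, and after removing genotype and sex means the adjusted p were 0.186 and 0.0619.

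Genes whose log2 level over the 16 mice was most like that of each member were listed among 14088 genes, as a description. For Faah these were Tmem178 (r = 0.955), 3110035E14Rik (r = 0.940) and Cbln2 (r = 0.934), a synaptic organiser. For Cnr1 they were Ndfip2 (r = 0.832), Ppargc1a (r = 0.807) and Myo5c (r = 0.786). Dagla was most like Sema3g (r = 0.934), Sort1 (r = 0.925) and Coro7 (r = 0.919), and Daglb most like Pacs1 (r = 0.934), Wwox (r = 0.930) and Crtac1 (r = 0.923). Abhd6 went with Ahsa1 (r = 0.919), Psmd4 (r = 0.918) and Ddx23 (r = 0.912). For Napepld the nearest were Rnd1, Otx1 and Ppic (r = 0.837 to 0.840), and for Mgll 5930403L14Rik, Mageh1 and Cox4i2 (r = 0.789 to 0.806).

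Exon use was compared on bins, the stretches into which overlapping annotated exons are divided. The 7 genes held 136 bins, of which 120 were tested, and none of the 7 was called for a genotype difference in exon use by edgeR (adjusted p = 1 for each), where 0.00672% of the genes tested were (1 of 14875). A single bin of the 120 had an unadjusted p under 0.05, against 1.05% of all tested bins. It was Faah bin 17, an intron stretch of 521 bp found only in the retained-intron transcript Faah-005, which took 1.53 ± 0.306% of the summed bin counts of Faah in congenic mice and 1.15 ± 0.259% in wild-type mice (n = 8 each, SD). The bins of smallest p in the other genes, Cnr1 bin 5, Dagla bin 25, Daglb bin 2, Napepld bin 11, Mgll bin 4 and Abhd6 bin 13, had log2 differences from -0.13 to 0.11 and unadjusted p from 0.128 to 0.407. limma's diffSplice also called 0 of the 7 genes.

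Over all mice, the counts differed between the alternative starts of Cnr1 shown above. The Cnr1-001 leader exon (bin 2, 527 bp, also annotated in the noncoding Cnr1-002) held 1959 counts per mouse on average (1508 to 2371), and the Cnr1-003 leader exon (bin 3, 407 bp) held 154 (102 to 260). Per 100 bp that is 372 and 37.8 counts, so the Cnr1-001 leader was the denser. The stretch shown for Cnr1-003 lies mostly within its leader, so the CpG counts do not compare like regions of these starts. The exon with the coding sequence (bin 6) held 753 counts per 100 bp. In Mgll, the first 3 bins after the Mgll-001 start had 0 counts in all 16 mice, and the bin that follows them had 87.8 counts on average over 78 bp. Nearer the Mgll-202 start, bin 6 (120 bp, annotated in Mgll-002 and Mgll-202) held 84 to 160 counts per mouse. The stretch of 351 bp further downstream (bin 7) had 704 counts on average. Transcript Mgll-003 starts at the first base of bin 7, so these counts cannot be assigned to the Mgll-202 start. Both leaders of Abhd6 were unequal, as in Cnr1, at 147 counts (bin 1) and 10.3 counts (bin 2).

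**Figure D5:**
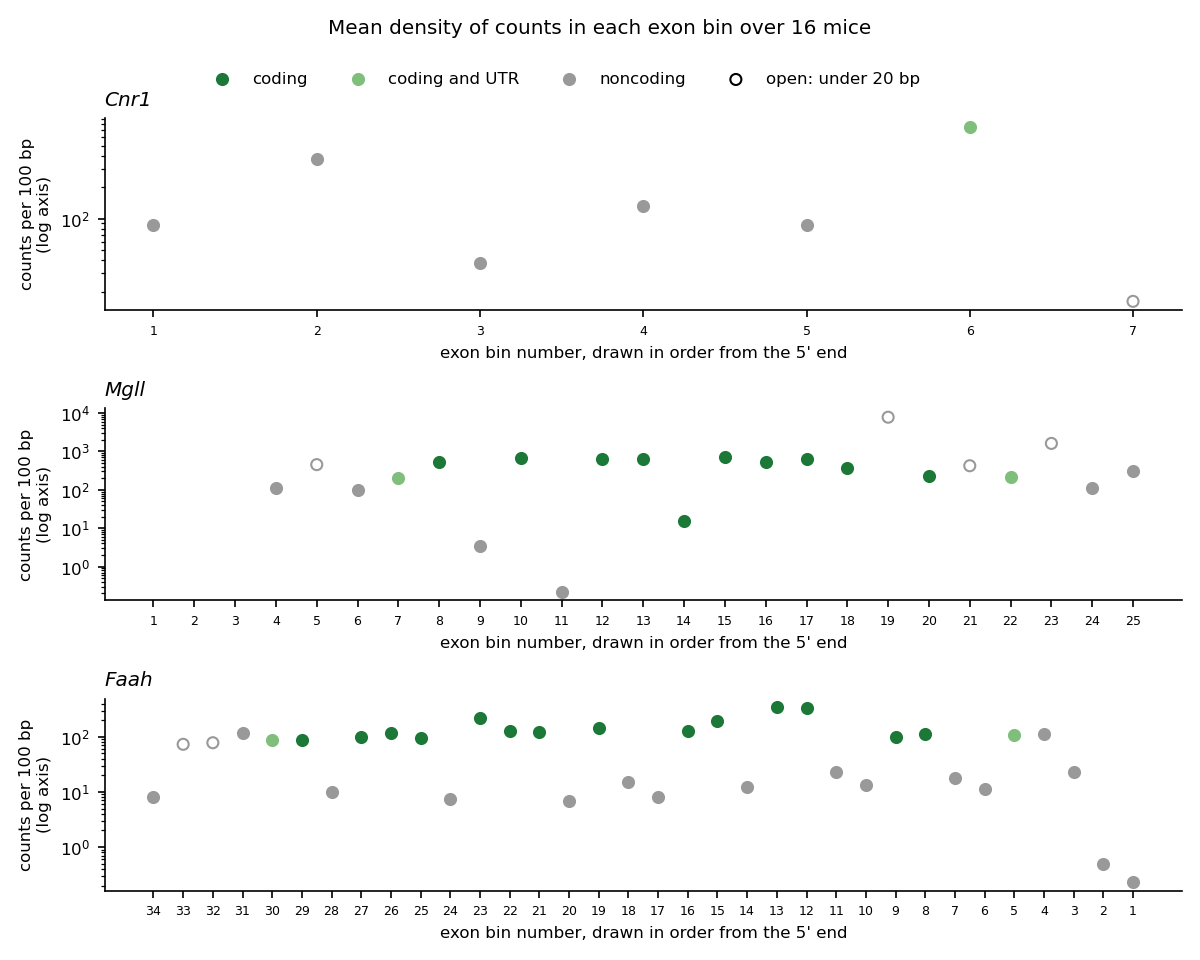
Mean counts per 100 bp (y axis, log scale) in each exon bin of Cnr1, Mgll and Faah over 16 mice, in order from the 5′ end, coloured by coding content, with open points for bins under 20 bp. In Cnr1 the dense bins are 2 and 6, in Mgll bin 14 lies far below its coding neighbours, and bins with 0 counts (Mgll 1 to 3) cannot be drawn on the log axis.

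A pair of coding stretches that some annotated transcripts lack is shown because their counts bear on which transcripts were present. Both are printed on the gene's strand (NCBIM37), with the exon bin in capitals and the flanking bases in lower case. Mgll bin 14 (chr6:88763874-88763957, with 20 bases on each side) is a cassette exon of 84 bp, a multiple of 3, annotated in Mgll-006 alone. Dagla bin 21 (chr19:10345478-10345500, minus strand, with 30 bases on each side) is the last 23 bp of an exon of Dagla-001, and Dagla-002, annotated as a target of nonsense-mediated decay, lacks it.
Mgll bin 14: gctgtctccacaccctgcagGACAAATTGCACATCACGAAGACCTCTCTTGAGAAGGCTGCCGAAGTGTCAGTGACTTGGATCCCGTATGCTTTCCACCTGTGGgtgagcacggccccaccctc
Dagla bin 21: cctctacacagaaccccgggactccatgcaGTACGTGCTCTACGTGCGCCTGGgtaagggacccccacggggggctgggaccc

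The Mgll cassette is preceded by AG and followed by GT, and it held 13.1 counts on average (2 to 20), against 707 in the coding bin before it and 658 in the one after it. Dagla bin 21 is followed by GT and held 262 counts (193 to 345), against 539 and 529 in the bins beside it. Reads that span several bins are counted in each, and a bin shorter than a read has few reads of its own, so the share of transcripts with either stretch was not derived from these counts.

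Of 41 other genes of the pathway, 37 were tested, and 0 passed for genotype, sex or their product. Untested were Gpr18, Gpr119, Trpv1 and Plaat5. For genotype 15 of the 37 log2 differences were positive, the median was -0.01 and 1 had an unadjusted p under 0.05, where 256 of all 16716 genes did. That was Ptgs2, a cyclooxygenase that can oxidise 2-AG and anandamide, with 2.26 ± 0.351 CPM in congenic mice and 2.71 ± 0.524 CPM in wild-type mice (n = 8 each, SD; log2 difference -0.26, SE 0.12, adjusted p = 0.999). For sex, 6 of the 37 had an unadjusted p under 0.05, where 2464 of the 16716 did, a like share, and for the product term 0, where 698 did.

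The second cannabinoid receptor, Cnr2, known chiefly from immune cells, was low, with 0.279 ± 0.0915 CPM in congenic mice and 0.357 ± 0.0427 CPM in wild-type mice (log2 difference -0.35, SE 0.20). Ppara, a nuclear receptor for related lipids, had 6.08 ± 0.786 CPM in congenic mice and 6.08 ± 0.568 CPM in wild-type mice. Over all tested genes the median size of the log2 difference was 0.04. All 5 genes of proteins that bind CB1 had log2 differences below 0, from -0.06 to -0.01, with unadjusted edgeR p from 0.352 to 0.745. None of the 5 passed, and whether they share a direction was not tested. Among them Gprasp1, which sorts the receptor for degradation, had 645 ± 52.5 CPM in congenic mice and 666 ± 42.4 CPM in wild-type mice, and Arrb2, an arrestin, had 29.1 ± 2.20 CPM in congenic animals and 30.1 ± 1.63 CPM in B6 wild-type animals.

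Of the 4 genes of inhibitory G proteins none passed, and Gnao1 had 866 ± 47.3 CPM in congenic mice and 883 ± 29.6 CPM in wild-type mice, with Gnai3 at 42.4 ± 2.76 CPM in congenic animals and 40.5 ± 3.38 CPM in B6 wild-type animals. Upstream of the lipases, Grm5, the metabotropic glutamate receptor whose activation drives 2-AG production, had 484 ± 16.0 CPM in congenic mice and 484 ± 24.0 CPM in wild-type mice. Plcb2, a phospholipase C, had 6.98 ± 0.663 CPM in congenic animals and 7.24 ± 0.465 CPM in B6 wild-type animals. In that list of 8 genes 2 log2 differences were positive, with a median of -0.02.

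Other routes to anandamide were as flat, with 5 of 8 tested genes positive and a median log2 difference of 0.01. Gde1 had 162 ± 8.79 CPM in congenic mice and 160 ± 5.71 CPM in wild-type mice, and Abhd4 had 71.1 ± 3.59 CPM in congenic animals and 69.4 ± 4.80 CPM in B6 wild-type animals. Abhd12, another hydrolase of 2-AG, had 253 ± 10.2 CPM in congenic mice and 247 ± 5.51 CPM in wild-type mice. Scp2, a lipid carrier, had 134 ± 11.5 CPM in congenic animals and 129 ± 7.68 CPM in B6 wild-type animals (n = 8 each, SD throughout).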

How the data were processed

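Counts per gene and per exon bin were deposited by the authors as whole numbers for 48 runs, with no run left unmapped. Per the submitters' processing notes, HTSeq 0.6.1p1, edgeR 3.8.6, limma 3.22.7 and FastQC 0.10.1 were used, with builds mm9 and mm10 named without roles. Per the labels, the libraries are TruSeq, but the design text gives single-end and the extraction protocol paired-end stranded reads. Of gene counts, 62.0% of values from 1 to 10 were even, so counts may not be independent reads. No row lacked a gene name. Exon bins carry numbers only. They were matched, by the number of bins in each member, to bins built anew from GENCODE exons (NCBIM37), and start sequences come from RefSeq (GRCm38.p6).

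The 3 lanes of each mouse were summed. Levels are CPM of library totals, and correlations and fits use TMM scaling. edgeR 4.0.16 in R 4.3.3 fitted genotype and sex over 16 mice with the robust quasi-likelihood test after filterByExpr (minimum count 10), with Benjamini-Hochberg adjustment over all 16716 genes tested. For correlations a prior count of 0.5 was added before logs. Exon use was tested with edgeR's diffSpliceDGE and Simes' method (118 to 133 M bin counts per mouse, since a read is counted in each bin it touches). DESeq2 1.42.0 and limma 3.58.1 were alternatives, as were other scalings, filters and covariates, single lanes, each mouse left out and 3 mice left out. The tests were tested on simulated data. Permutation tests were two-sided.

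Members and lists were chosen with earlier results of these data known. All 7 members are named. Of each other list, the gene of highest mean CPM and that of smallest genotype p are named, with the 3 most alike genes (mean CPM of at least 1) and the bin of smallest p for each member. The Cnr1, Mgll, Abhd6 and Dagla exon bins were chosen after their counts had been seen.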

Additional observations from a re-analysis of the deposited data

How the results depend on the processing

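For genotype, sex, their product and exon use, 0 of the 7 genes were called under every alternative run, each mouse left out in turn included, and the order of levels held in all 6 steps when length was taken from bins with at least 10 counts (TMM scaling cannot change a step within a mouse). Signs of uncalled differences near 0 did turn. For genotype, the log2 difference was 0.025 for Daglb and 0.036 for Faah with the cortical score as covariate, 0.0046 for Dagla in lane 3 alone, 0.056 for Napepld (but -0.21 in lane 5 alone) and -0.012 for Mgll in lane 4 alone, and 0.0023 for Daglb and -0.00056 for Mgll in lane 5 alone. For sex, Cnr1 was at 0.0017 with that covariate, Dagla at -0.0072 and Daglb at -0.020 with library totals, Daglb at -0.0083 in lane 4 and -0.013 in lane 5, and Dagla at -0.036 and Daglb at -0.027 without mice Sample_4753, Sample_4804 and Sample_4806. The cause of these turns was not tested.

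Leaving out 1 mouse gave genotype differences of -0.036 to 0.023 for Dagla, -0.058 to 0.0011 for Daglb and -0.024 to 0.038 for Mgll, and sex differences of -0.047 to 0.034 for Cnr1, -0.023 to 0.034 for Daglb and -0.0052 to 0.056 for Mgll. Product terms ran from -0.059 to 0.13 for Cnr1, -0.081 to 0.054 for Daglb, -0.061 to 0.031 for Abhd6 and -0.074 to 0.11 for Faah.

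Of all genes, 23 were called for sex, against 259 with DESeq2, 13 with the cortical covariate, 13 in lane 4 alone, 11 without the 3 mice and 12 to 76 with 1 mouse left out. The 1 gene called for exon use was lost with limma (0) and with a minimum count of 50 (0), and 0 to 1 were called with 1 mouse left out. Of 9 correlations called, 3 passed after removing genotype and sex means and 4 with library totals. No analysis paired by litter was run, because the sample descriptions used here name no litter for each mouse. Differences between litters were therefore not modelled. Depth limits the genes of few counts: Cnr2 had 12 to 33 per mouse, and Napepld 390 to 649.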

Other observations

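The exon bins of Faah were divided after their counts had been seen into 16 coding bins and 9 intron bins that belong only to transcripts other than Faah-001. The coding bins summed to 28.2 ± 4.59 counts-per-million (CPM) of the gene table in congenic mice and 30.3 ± 4.45 in wild-type mice (n = 8 each, SD). A read is counted in each bin it touches, so this sum can exceed the level of the whole gene. That level was 22.4 CPM in congenic mice and 24.0 CPM in wild-type mice. The intron bins summed to 4.96 ± 0.737 in congenic mice and 4.98 ± 1.117 in wild-type mice. Over the 16 mice the coding sum went with the cortical marker score (r = 0.889, permutation p = 1e-05, the smallest that 100000 permutations can give). The intron sum had a lower r (r = 0.580, permutation p = 0.0199, adjusted over 3 measures 0.0298). Within males r was 0.869 for the coding sum and 0.294 for the intron sum, and within females 0.877 and 0.537. The intron sum was also the smaller, and what part counting error had in its lower r was not tested. The intron share of both sums was 15.03 ± 1.504% in congenic mice and 14.04 ± 1.64% in wild-type mice, a share of bin counts and not of reads. Its relation to the score was not detected (r = -0.281, permutation p = 0.290). For this share r was -0.627 in males, -0.449 in females and 0.167 without the mice farthest from the median score.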
